A study of Mus musculus with 2 samples.

Results

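The histones Hist1h2ba (TH2B), Hist1h2aa (TH2A), H2al2a, H2al1n, H2al1a and H2al1g are testis variants of the core histones H2B and H2A. They were taken by symbol, 6 of the 32285 genes in the count tables, and the sum over all 14 H2al1 copies, 11 of them outside this set, is given beside them. RNA of single cells from whole dissociated mouse testis was counted with a droplet 3′ kit in 1 library per genotype. The control library was Dot1L fl/+ without Cre, so that it carried 1 floxed and 1 wild-type allele. The conditional knockout (cKO) library was Dot1L fl/delta with Ddx4-Cre, a Cre driven by the promoter of the germ cell gene Ddx4. The age and number of the animals are not given in the sources used here. With 1 library per genotype there is no replicate check and no test, and each interval below is an exact 95% interval that covers counting error only.

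TH2B is known to replace most somatic H2B from meiosis on, and TH2A is its partner from the neighbouring gene. H2A.L proteins are short H2A variants made in spermatids, and H2A.L.2, the product of H2al2a, is known to enter chromatin together with transition proteins as protamines replace the histones. Dot1L methylates histone H3 in the core of the nucleosome, and the study's title concerns its part in the change from histones to protamines.

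Hist1h2ba (chr13:23933773-23934156, minus strand) and Hist1h2aa (chr13:23934462-23934851, plus strand) lie head to head on GRCm38, with 305 bases between their single-exon gene models. Both models consist of coding sequence alone, and that of Hist1h2aa overlaps Gm44344 on the other strand. Of their 40-base words, 40.0% (Hist1h2ba) and 6.84% (Hist1h2aa) also occurred in another transcript. Their promoter windows overlap, and the stretch from chr13:23934187-23934436 (plus strand, RefSeq on GRCm38.p6) is shown because both genes face it. Capitals mark the motifs searched on both strands, which were the octamer ATTTGCAT, the cyclic AMP response element core TGACGT, the CCAAT box and the TATA box TATAAA.

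Hist1h2aa and Hist1h2ba: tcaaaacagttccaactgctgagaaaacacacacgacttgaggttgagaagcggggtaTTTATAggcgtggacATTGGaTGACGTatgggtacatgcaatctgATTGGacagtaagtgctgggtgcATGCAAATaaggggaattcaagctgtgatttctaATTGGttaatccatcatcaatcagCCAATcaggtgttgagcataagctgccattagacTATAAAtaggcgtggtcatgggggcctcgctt

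Of 32851 RefSeq promoter windows of 300 bases, 1.74% held the octamer, 7.51% TGACGT, 37.4% CCAAT and 13.6% TATAAA. None of the 4 motifs was in the windows of H2al2a, H2al1n, H2al1a and H2al1g. Those 4 windows shared a 30-base run instead, in capitals below, over 150 bases upstream of each gene on its own strand. The stretches are chr2:17996959-17997108 (minus), chrX:14210998-14211147, chrX:11299107-11299256 and chrX:11318106-11318255 (plus).

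H2al2a: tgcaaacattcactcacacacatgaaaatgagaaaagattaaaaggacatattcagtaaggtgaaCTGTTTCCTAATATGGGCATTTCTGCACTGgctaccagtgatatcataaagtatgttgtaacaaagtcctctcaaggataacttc
H2al1n: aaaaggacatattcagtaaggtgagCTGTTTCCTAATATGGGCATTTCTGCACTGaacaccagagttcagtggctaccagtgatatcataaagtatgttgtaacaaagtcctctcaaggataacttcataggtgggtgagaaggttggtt
H2al1a: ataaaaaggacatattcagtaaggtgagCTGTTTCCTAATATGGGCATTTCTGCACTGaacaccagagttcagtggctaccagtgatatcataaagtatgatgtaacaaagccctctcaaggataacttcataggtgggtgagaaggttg
H2al1g: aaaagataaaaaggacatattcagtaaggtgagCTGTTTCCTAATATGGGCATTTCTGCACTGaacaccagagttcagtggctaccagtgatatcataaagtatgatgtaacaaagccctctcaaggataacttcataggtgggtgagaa

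The run was searched only in the 250 upstream bases of each window. It was there in 14 of the 32851 windows, those of H2al2a and of 13 of the 14 H2al1 copies, and H2al1o lacked it. H2al2a and the 14 copies are single-exon genes, and 10 copies, H2al1a to H2al1j, stand in a tandem array at chrX:11299257-11328151 with 3098 to 3236 bases from one start to the next. H2al1n (chrX:14211148-14211661), H2al1k, H2al1m and H2al1o lie elsewhere on the X chromosome. Near-identical sequence limits what the counts of one copy mean: 99.8% of the 40-base words of the H2al1a transcript also occurred in another transcript, against 423 of 470 words for H2al1g, 30.9% for H2al1n and 11.7% for H2al2a. How reads that fit several copies were counted is not given in the sources used here.

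The coding sequences fell into groups. Those of H2al1a, H2al1c, H2al1d, H2al1f, H2al1g, H2al1h and H2al1i were identical over 315 bases without the stop codon. Compared with H2al1g, those of H2al1b, H2al1e, H2al1k and H2al1m all carried T67C and C69T, counted from the A of the start codon. H2al1n, H2al1o and H2al1j had coding sequences of another length and held CTT at bases 67 to 69 as well. The stretch from coding base 43 to 90 (GENCODE vM21, GRCm38, plus strand) is shown for the copies with most UMIs, with bases 67 to 69 in capitals, because the copies of the upper and lower group differed in the cKO library.

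H2al1a: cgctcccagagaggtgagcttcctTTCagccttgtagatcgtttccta
H2al1g: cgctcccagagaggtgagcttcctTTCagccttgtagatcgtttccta
H2al1i: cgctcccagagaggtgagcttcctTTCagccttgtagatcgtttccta
H2al1b: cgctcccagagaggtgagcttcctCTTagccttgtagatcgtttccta
H2al1k: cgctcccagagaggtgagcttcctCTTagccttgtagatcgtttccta
H2al1m: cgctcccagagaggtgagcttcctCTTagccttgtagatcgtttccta
H2al1n: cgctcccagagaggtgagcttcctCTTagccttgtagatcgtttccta

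They lie at chrX:11299363-11299410 (H2al1a), chrX:11318367-11318414 (H2al1g), chrX:11324701-11324748 (H2al1i), chrX:11302531-11302578 (H2al1b), chrX:9350738-9350785 (H2al1k), chrX:9283901-9283948 (H2al1m) and chrX:14211251-14211298 (H2al1n). These are reference sequences, and which base the counted RNA carried was not analysed here.

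The control table held 155487418 unique molecular identifiers (UMIs, counted RNA molecules) in 17408 barcodes and that of the cKO 156518838 in 20601, while 102 barcodes occurred in both. After filters 15545 and 18125 cells were kept and clustered without any histone, transition protein or protamine gene among the variable genes. Of Dot1l itself, control and cKO held 100.5 and 46.5 UMIs per 1000000 UMIs of the class (CPM) in mid to late spermatocyte-like cells and 37.4 and 5.04 CPM in round spermatid-like cells. Because 3′ tags need not lie in the deleted part, those values do not check the deletion. Spermatid clusters held nearly 1 library each: round spermatid-like clusters 7 and 8 and elongating spermatid-like clusters 6 and 11 were control cells, and clusters 10, 15, 17 and 18 cKO cells. Erythroid-like cells, which count among all kept cells, split too. Their cluster 0 held 3673 control and 247 cKO cells, and cluster 5 held 131 and 3477. A cluster of nearly 1 library may be that library rather than a type.

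Hist1h2ba RNA was highest in early meiosis and close to absent from spermatids in both libraries. In the control library spermatogonium-like cells held 20.8 CPM, early spermatocyte-like cells 113, mid to late ones 20.8, and round and elongating spermatid-like cells 0.104 and 0.288. The cKO library gave 27.1, 96.0, 20.9, 0.591 and 0.727 CPM in the same order. Pooled macrophage-like, mesenchymal-like and Leydig-like cells, which should lack germ cell histones and so give the level of free RNA, held 1.15 CPM on 1 control UMI and 4.44 CPM on 25 cKO UMIs. The spermatid values lay under that level.

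Within mid to late spermatocyte-like cells the RNA fell from cluster to cluster. Cluster 12, with most Piwil1 (844 CPM in control and 766 in cKO), held 72.5 CPM of Hist1h2ba in control and 71.5 in cKO cells. Cluster 14, with 320.1 and 331 CPM of Piwil1, held 5.52 and 6.37 CPM. Cluster 2, with 45.4 and 30.3 CPM of Piwil1, held 0.664 and 0.934 CPM. Over the class, the log2 ratio of cKO to control was 0.00 (−0.11 to 0.12), with 1096 and 1240 UMIs. The ratio of early spermatocyte-like cells was −0.23 (−0.48 to 0.02), and that of spermatogonium-like cells was 0.38 (−0.22 to 0.99).

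Hist1h2aa RNA came earlier. The control library held 122 CPM in spermatogonium-like, 342 in early spermatocyte-like, 21.1 in mid to late spermatocyte-like, 0.458 in round and 0.864 in elongating spermatid-like cells. The cKO library held 129, 252, 19.1, 1.31 and 1.72 CPM. Early spermatocyte-like cells were again the highest class in both libraries, and there the cKO value was lower by −0.44 on the log2 scale (−0.59 to −0.30). With classes drawn from marker scores per cell it was −0.04, and −0.75 with at most 5% mitochondrial UMIs. Spermatogonium-like cells gave a ratio of 0.08 (−0.17 to 0.34), and mid to late spermatocyte-like cells one of −0.14 (−0.26 to −0.02). Pooled somatic cells held 13.8 CPM in control and 2.13 in cKO on 12 UMIs each. Of the 24 control UMIs in elongating spermatid-like cells, 17 came from the 8 control cells of cluster 18.

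The balance of the pair's UMIs differed between stages in both libraries. In control, spermatogonium-like cells gave 5.86 Hist1h2aa UMIs per Hist1h2ba UMI (4.10 to 8.60), early spermatocyte-like cells 3.04 (2.60 to 3.55), and the ratio was 1.04 in cluster 12 (0.954 to 1.14) and 0.797 in cluster 14 (0.623 to 1.02). The cKO library gave 4.78 (3.71 to 6.23), 2.62 (2.32 to 2.97), 0.907 (0.829 to 0.993) and 0.836 (0.681 to 1.02). From spermatogonium-like cells to cluster 12 the intervals of successive stages did not overlap, and those of clusters 12 and 14 did. Cluster 2, with few UMIs of either gene, did not continue the fall: it gave 1.5 (0.564 to 4.23) in control, on 12 and 8 UMIs, and 3.36 (1.68 to 7.31) in cKO, on 37 and 11. The level of one gene against the other is not comparable by itself, since gene models and their 3′ ends differ. Its shift between classes is comparable only if the 3′ ends of each gene were captured alike at every stage, which was not tested. Both RNAs were often found in one cell: of 128 control early spermatocyte-like cells with a Hist1h2ba UMI, 93 (72.7%) also had one of Hist1h2aa, and of 209 cKO cells 151 (72.2%). Over the class 60.4% of control and 53.1% of cKO cells had a Hist1h2aa UMI, and 36.8% and 32.7% after thinning each cell to 2000 UMIs, which left out 5 and 10 shallower cells. Somatic cells had one in 1.63% and 0.871%.

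**Figure D1:**
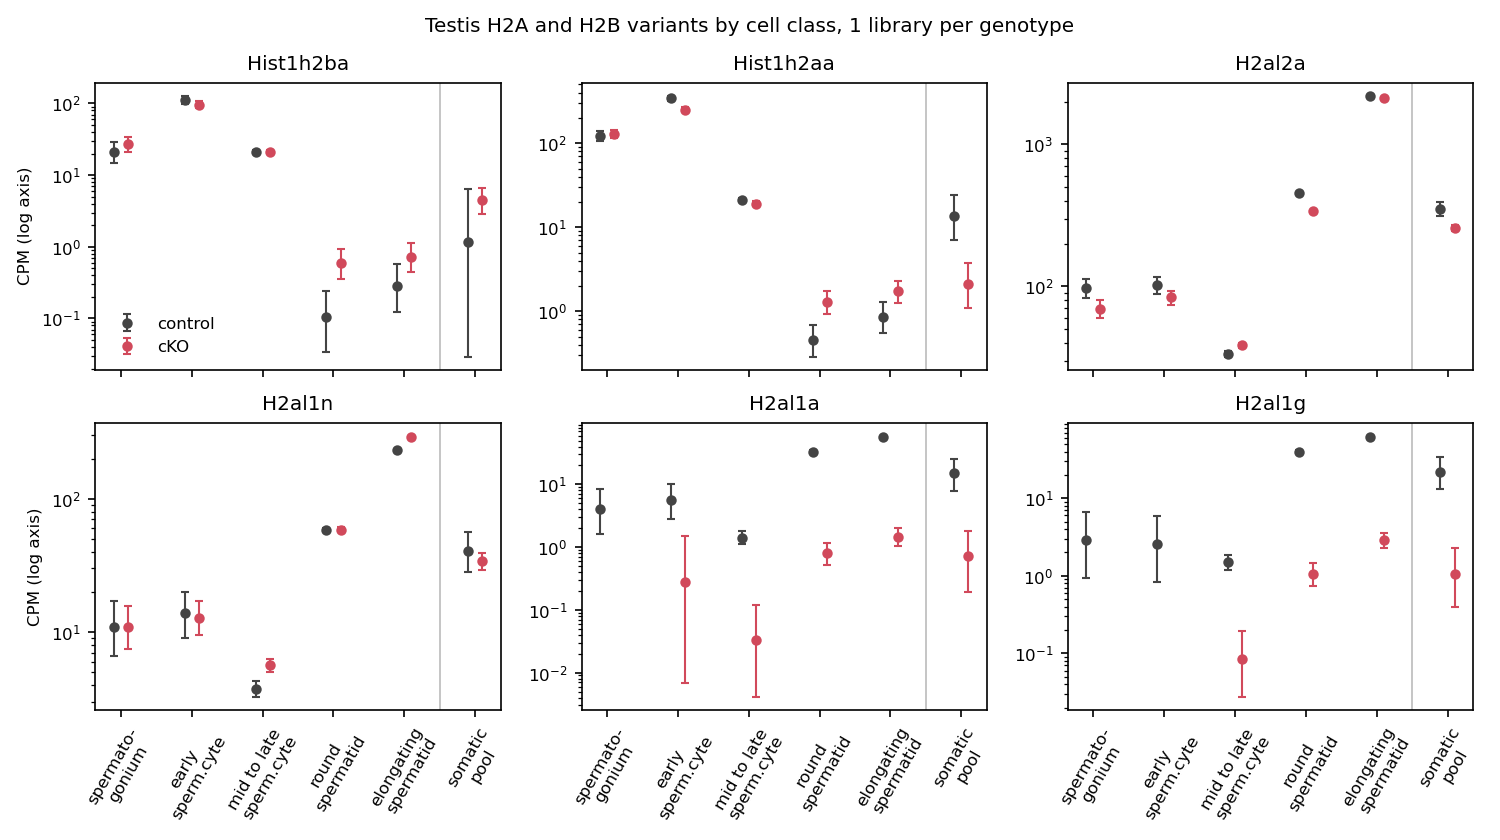
CPM (log axis) of the 6 genes in 5 germ cell classes and in the pooled somatic cells, control in grey and cKO in red, with exact 95% Poisson intervals and classes at 0 UMIs left out. Hist1h2ba and Hist1h2aa are highest in early spermatocyte-like cells, H2al2a and H2al1n in elongating spermatid-like cells, and H2al1a and H2al1g are lower in cKO wherever both libraries have a point.

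H2al2a was a spermatid transcript in both libraries. Before the spermatids, control classes held 97.2 (spermatogonium-like), 102 (early spermatocyte-like) and 33.5 CPM (mid to late), then 453 in round and 2191 in elongating spermatid-like cells. The cKO library gave 69.8, 83.7, 38.5, 338 and 2140 CPM. Somatic cells held 352 and 259 CPM, more than the classes before the round spermatid in each library. Per cell that was 1.24 and 1.81 UMIs in somatic cells, against 18.6 and 17.4 in elongating spermatid-like cells. Sertoli-like cells, kept out of the somatic pool, held 709 CPM in control and 629 in cKO, more than the round spermatid-like class. Somatic cells had a median of 1413.5 UMIs in control and 1881.5 in cKO, and means of 3535 and 7004, so that some deep barcodes carried much of the pool. The pool of 246 control cells held 142 Leydig-like ones, and that of 804 cKO cells held 451. They gave 441991 of its 869610 UMIs in control and 4390555 of 5631036 in cKO.

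In elongating spermatid-like cells the log2 ratio of H2al2a was −0.03 (−0.05 to −0.02), and in round spermatid-like cells −0.42 (−0.46 to −0.39). The round value rested on how the class was drawn: it was 0.06 by the class of the highest marker score, 0.19 at Leiden resolution 2 and 0.23 with doublets kept. A UMI of H2al2a was found in 88.8% of control and 88.5% of cKO elongating spermatid-like cells (89.85% and 89.98% at 2000 UMIs), against 69.3% and 64.8% of round ones (37.99% and 32.1%) and 45.9% and 40.5% of somatic ones (39.3% and 26.7%). Thinning left out 344 control and 333 cKO elongating, 15 and 15 round spermatid-like and 157 and 425 somatic cells as too shallow. The round class was a mix. Its early clusters, 8 in control and 10 in cKO, held 67.1 and 49.0 CPM, and its late clusters, 7 and 15, held 1156 and 789 CPM. The early values lay under those of somatic cells in CPM, but clusters 8 and 10 were deeper, with medians of 20162 and 19094 UMIs per cell. The control cluster 7 also had more RNA of the protamine gene Prm1 than cKO cluster 15 (44927 against 11863 CPM).

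To compare like with like, all spermatid-like cells were put into 6 ranges of one index, the log2 of elongating over round marker UMIs, chosen after seeing that clusters separated by library. Of 10018 cells, 85 to 499 lay within 0.1 of each of the 5 cuts. In ranges 1 to 6, H2al2a rose from 130 to 2341 CPM in control and from 170 to 2444 in cKO. The log2 ratios were 0.38, 0.36, 0.06, 0.07, 0.03 and 0.06, so that the lower value of the round class was not seen at a matched index. Transition protein and protamine genes took 0.536% of the UMIs in range 1 of control and 0.447% in cKO, 4.48% and 4.21% in range 2, 25.4% and 19.0% in range 3, and 29.7% and 21.7% in range 6. Whether these shares bear on the ratios was not tested. Under another scaling, by the median of ratios over genes, H2al2a in elongating spermatid-like cells stood at −0.61. The median over all 11859 measured genes of that class was 0.58 on the CPM scale.

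H2al1n rose with H2al2a. Mid to late spermatocyte-like cells held 3.76 CPM in control, round spermatid-like cells 58.2 and elongating ones 232, and in cKO 5.62, 58.7 and 290. Somatic cells held 40.2 and 33.9 CPM. The log2 ratio was 0.01 (−0.07 to 0.10) in round spermatid-like cells, or −0.19 to 0.59 over the alternatives tried, and 0.32 (0.27 to 0.37) in elongating spermatid-like cells, and the second turned to −0.26 under median scaling. Along the index H2al1n reached its highest value in range 4 in both libraries, at 246 and 306 CPM, and stayed at 89.1% and 89.7% of it in range 6. H2al2a was highest in range 6. The count of H2al2a UMIs per H2al1n UMI therefore grew from 6.16 (5.56 to 6.84) in range 1 to 10.7 (10.2 to 11.2) in range 6 in control, and from 5.88 (5.36 to 6.46) to 8.92 (8.37 to 9.50) in cKO.

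H2al1a and H2al1g were nearly absent from the cKO library. With 1 library per genotype, the Dot1L genotype and a difference between the animals in their H2al1 alleles or copies cannot be told apart. H2al1a stood at 33.2 CPM (31.6 to 34.9) in control round spermatid-like cells and 0.808 (0.528 to 1.18) in cKO, and at 56.6 (53.9 to 59.5) and 1.45 (1.03 to 1.997) in elongating ones. These are log2 ratios of −5.36 (−5.98 to −4.81) and −5.28 (−5.79 to −4.82). H2al1g stood at 40.0 and 1.06 CPM in round and at 61.0 and 2.87 in elongating spermatid-like cells, with ratios of −5.24 (−5.77 to −4.75) and −4.41 (−4.76 to −4.08). No interval of one library came near that of the other. Over all kept cells (2 of 6 genes lower and 0 higher by the 2-fold rule, against 1.90% and 11.0% of all genes) 3577 control and 82 cKO UMIs were counted for H2al1a, and 4067 and 137 for H2al1g.

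The cKO value was lower in each class with UMIs of these genes, by differing amounts. Somatic cells, in which H2al1a should be free RNA, held 14.9 and 0.710 CPM (13 and 4 UMIs), a log2 ratio of −4.40 (−6.47 to −2.70). With fewer than 50 UMIs these 2 genes were not among the 2 measured there, H2al2a and H2al1n, of which 0 passed 2-fold (5.73% of all genes were lower and 8.40% higher). Spermatogonium-like cells had 7 control and 0 cKO UMIs of H2al1a, where a count of 0 allows up to 1.10 CPM. In the 6 index ranges the ratio of H2al1a lay between −6.90 and −4.85 and that of H2al1g between −5.86 and −3.88. In the control library 38.1% of round and 27.9% of elongating spermatid-like cells had a UMI of H2al1a, against 1.73% and 1.18% of cKO cells, and at 2000 UMIs the shares were 6.02% and 7.65% against 0.139% and 0.209%.

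Among the 5 genes of this set measured (50 or more UMIs over both libraries) in elongating spermatid-like cells, 2 were 2-fold or more lower in cKO, H2al1a and H2al1g, and 0 were higher. Of all 11859 genes measured there, 1.40% were lower and 23.8% higher by that rule. In round spermatid-like cells 2 of 5 were lower and 1 higher, against 2.80% and 8.87% of all genes. The higher one was Hist1h2aa, at 0.458 and 1.31 CPM (22 and 42 UMIs). Both lay below the somatic values in CPM, but somatic cells were shallower, and counts per cell were not compared. In mid to late spermatocyte-like cells 2 of 6 were lower, again H2al1a (75 and 2 UMIs) and H2al1g (79 and 5), and 0 higher, against 1.46% and 7.02%. The CPM of H2al1a and H2al1g in that class also lay below the somatic values in both libraries. Whether those UMIs were free RNA from spermatids was not tested. None of the genes measured in spermatogonium-like (3) and early spermatocyte-like cells (4) passed the 2-fold rule, where 0.722% and 0.586% of all genes were lower and 3.50% and 2.69% higher.

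The other H2al1 copies did not follow H2al1a and H2al1g as one. H2al1i, which has the same coding sequence, had 229 UMIs over all kept control cells and 3 in cKO. H2al1b, inside the array, had 1560 and 2149. Outside the array, H2al1k had 1095 and 1597, H2al1m, whose model overlaps Xk on the same strand, 3251 and 4227, H2al1n 10179 and 11140, and H2al1o 41 and 100. H2al1c, H2al1d, H2al1f and H2al1h had 0 UMIs in both libraries. Their models consist of coding sequence alone, and 100% of their 40-base words also occurred in another transcript. A count of 0 therefore need not mean that these copies were silent, although H2al1i, with a model of the same kind, did have UMIs.

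**Figure D2:**
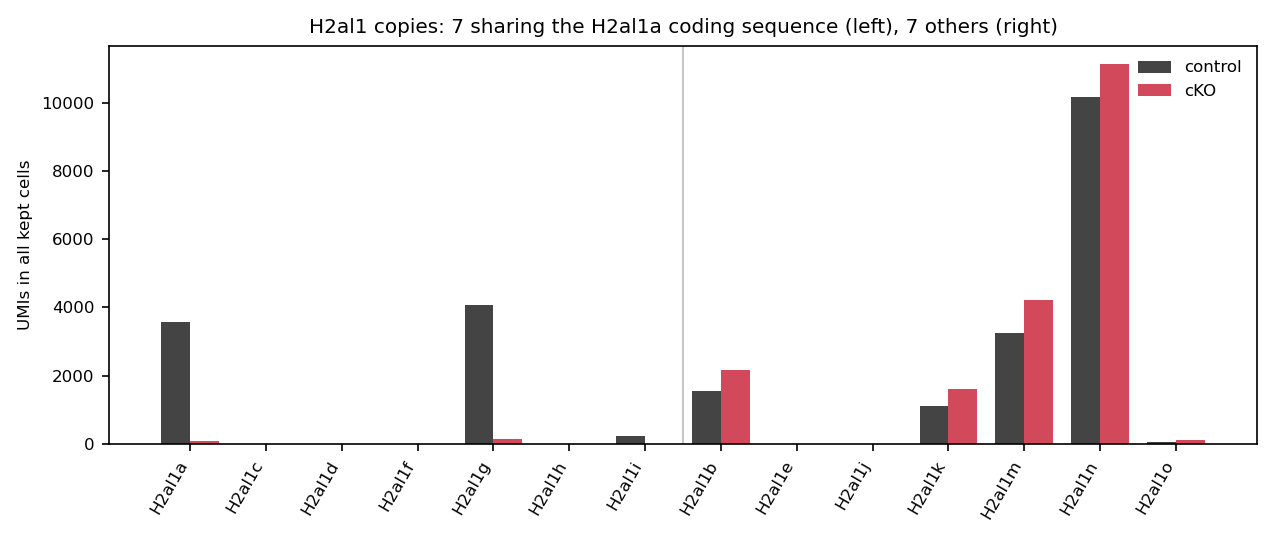
UMIs of the 14 H2al1 copies over all kept cells, control in grey and cKO in red, with the 7 copies that share the coding sequence of H2al1a left of the line. H2al1a, H2al1g and H2al1i are nearly absent in cKO, and H2al1b, H2al1k, H2al1m and H2al1n are not lower.

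Grouped by the bases at coding positions 67 to 69, a grouping made after the counts were seen, the 7 copies with TTC had 7873 control and 222 cKO UMIs over all kept cells. The 7 copies with CTT had 16128 and 19214. In elongating spermatid-like cells the TTC copies held 121 and 4.33 CPM, a log2 ratio of −4.81 (−5.09 to −4.54). The CTT copies held 337 and 473 CPM, a ratio of 0.49 (0.45 to 0.53) that turned to −0.09 under median scaling. Round spermatid-like cells gave 75.2 and 1.93 CPM for the TTC copies, a ratio of −5.29 (−5.67 to −4.92), and 107 and 118 CPM for the CTT copies, a ratio of 0.14 (0.08 to 0.20) that was −0.00 under median scaling and ran from −0.05 to 0.70 over the alternatives tried. Of the TTC copies only H2al1a, H2al1g and H2al1i had UMIs. The array holds copies of both kinds, such as H2al1a and H2al1b.

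**Figure D3:**
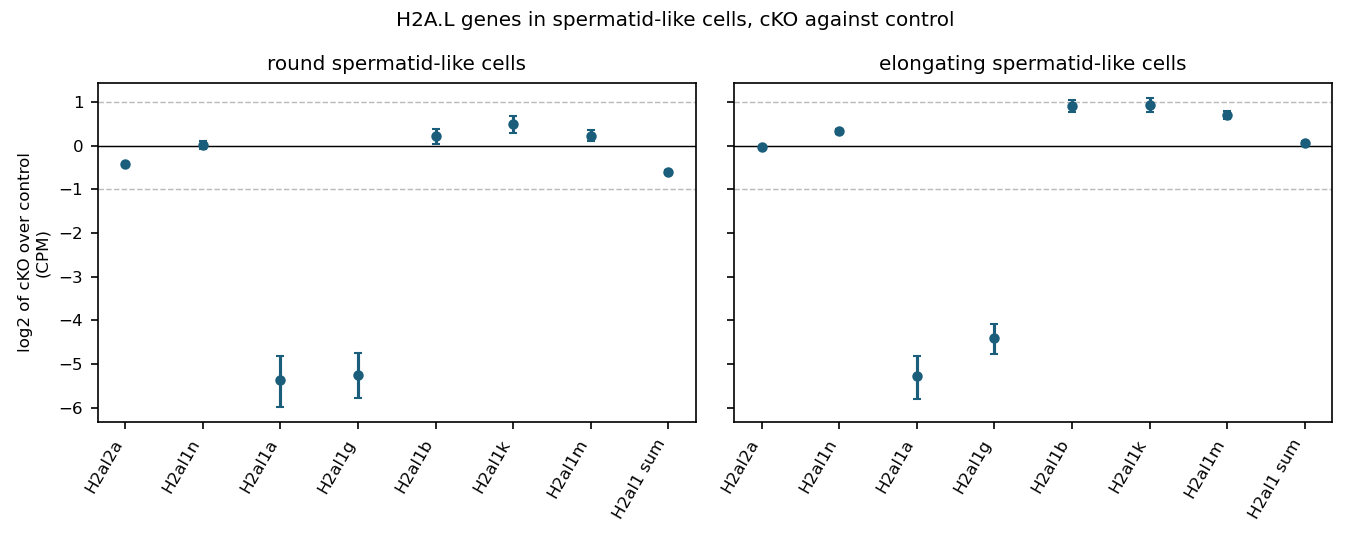
Log2 ratio of cKO to control CPM of H2al2a, 6 single H2al1 copies and the sum of all 14, in round (left) and elongating (right) spermatid-like cells, with exact 95% intervals for counting error and dashed lines at 2-fold. H2al1a and H2al1g lie between −5.36 and −4.41, and the other points drawn lie between −0.60 and 0.93. H2al1i and H2al1o, with few UMIs, are not drawn.

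The sum over the 14 copies hid most of that difference. It stood at 458 CPM in control and 477 in cKO elongating spermatid-like cells, a log2 ratio of 0.06 (0.02 to 0.10), on 12729 and 12471 UMIs. In round spermatid-like cells it was 182 and 120 CPM, a ratio of −0.60 (−0.66 to −0.55), which ranged from −0.80 to −0.04 over the alternatives tried. Somatic cells held 109 and 59.5 CPM. The make-up of the sum differed: in elongating spermatid-like cells H2al1a and H2al1g gave 12.4% and 13.3% of it in control and 0.305% and 0.601% in cKO. H2al1n gave 50.6% and 60.7%, and H2al1m 13.2% and 20.6%. At a matched index the sum differed by −0.66 in range 1 and by −0.19 to 0.20 in ranges 2 to 6.

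Timing within spermatids also differed between copies. In control H2al1a and H2al1g were highest in range 3, at 92.1 and 100.02 CPM, and fell to 26.3 and 29.5 CPM in range 6, that is 28.5% and 29.5% of the peak. H2al1m and H2al3, a more distant H2A.L gene on the X chromosome, also peaked in range 3 in both libraries. H2al3 went from 77.5 to 705 CPM and back to 111 in control, and from 67.8 to 657 and 85.8 in cKO. In range 1, H2al1a, H2al1g and H2al1b of the array were already at 24.5%, 31.7% and 23.3% of their control peak, against 12.8% for H2al1k, 10.1% for H2al1m, 8.62% for H2al1n and 5.57% for H2al2a. In control range 1, H2al2a (130 CPM), H2al1n (21.2) and H2al1m (9.35) lay under their somatic values of 352, 40.2 and 16.1 CPM. H2al1a and H2al1g lay above theirs, which rest on 13 and 19 somatic UMIs. H2al1b and H2al1k, with 7 and 6 control somatic UMIs, were not compared in this way. These are CPM of cells of unlike depth, with medians of 1413.5 UMIs in control somatic and 20208 in control round spermatid-like cells. Whether any of these genes stood above free RNA per cell in range 1 was not tested. In cKO H2al1b stood at 15.1% of its peak in range 1, H2al1k at 13.5%, H2al1m at 10.6% and H2al1n at 9.43%.

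**Figure D4:**
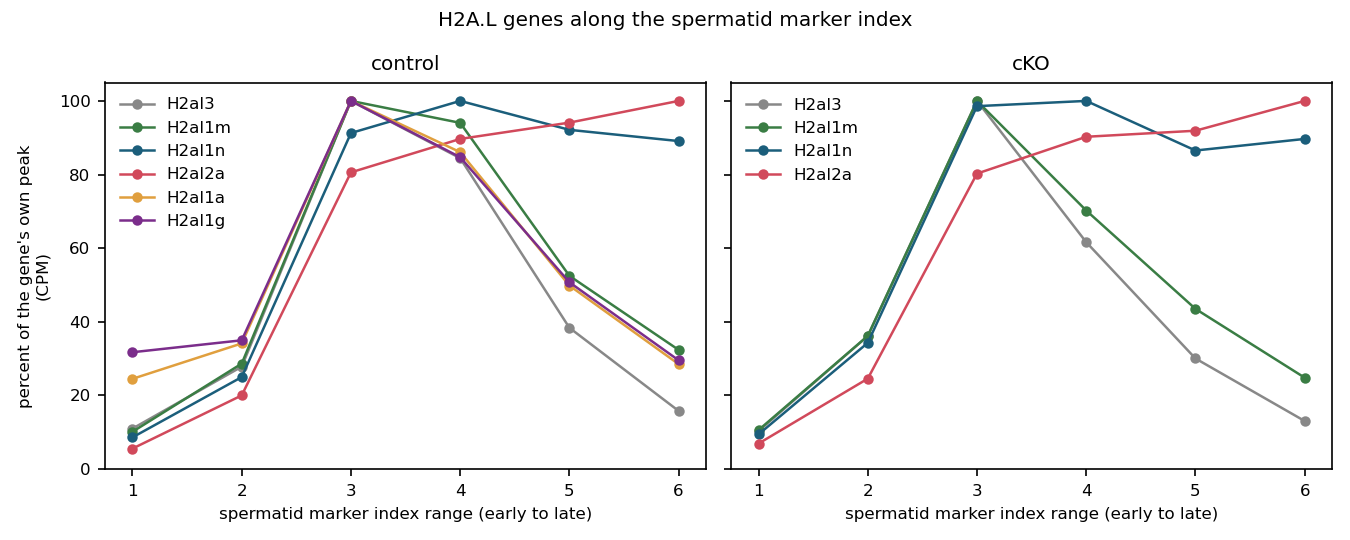
CPM of H2A.L genes in 6 ranges of the spermatid marker index, as a percent of each gene's own highest range, in control (left) and cKO (right), where H2al1a and H2al1g are left out for their few UMIs. H2al1a, H2al1g, H2al1m and H2al3 are highest in range 3 and fall after it, H2al1n stays near 90% in range 6 and H2al2a rises to the last range.

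Of the 20 genes listed as other testis H2A and H2B variants, 9 were measured in elongating spermatid-like cells, with 1 lower (H2al1i) and 1 higher (H2al1o, 0.720 and 2.37 CPM). The 9 include Hist1h2bc, which was not particular to germ cells. It held 81.6 and 98.2 CPM in somatic cells and 4.17 and 5.01 in elongating spermatid-like cells. Of all genes there, 1.40% were lower and 23.8% higher. The median log2 ratio of the 9 was 0.28, against 0.58 for all genes. Among round spermatid-like cells 9 were measured and 2 were lower (2.80% of all genes), H2al1i and H2afb1, with a median of −0.07 against 0.14 for all genes. H2afb1, an X-linked short H2A variant, had 216 control and 26 cKO UMIs there, and its relative H2afb3 had 1111 and 707 (23.1 and 22.0 CPM). Transition proteins, protamines and testis linker histones, 8 genes in all, included 5 lower ones in round spermatid-like cells, Tnp1, Tnp2, Prm1, Prm2 and Hist1h1t, where 2.80% of all genes were lower, and the median ratio of the 8 was −1.07 against 0.14 for all genes. The round class drew on clusters of nearly 1 library each, and single genes of this list were not compared at a matched index. The joint share of transition protein and protamine UMIs, given above by index range, differed by less than 2-fold in each range given. Among elongating spermatid-like cells 0 of the 8 were called either way and the median was −0.32 against 0.58 for all genes. Of 18 regulators of histone removal, 0 were called in round spermatid-like cells, where 2.80% of all genes were lower and 8.87% higher. Their median ratio was 0.20, against 0.14 for all genes. For the elongating class 6 were higher and 0 lower, against 23.8% and 1.40% of all genes, and the median was 0.72 against 0.58. The chromatin remodeller Chd5 stood at 23.2 and 96.0 CPM.

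The genes whose profile was most like that of each variant were ranked by Pearson's r of log2(CPM + 10) over 9 germ cell clusters of the control library, among 4394 genes. The clusters share one library and differ in depth, and r is given as a description. Hist1h2ba was nearest to the meiotic genes Tex12 (r = 0.990), Terb2 (0.985) and Hfm1 (0.984). Hist1h2aa was nearest to Myo5a (0.999), Vps54 (0.998) and Nfatc3 (0.994). H2al2a was nearest to Gabarapl1 (0.992), Otub2 (0.991) and Oxct2a (0.991), and H2al1n to Spata32 (0.996), Klk1b8 (0.993) and Gabarapl1 (0.992). H2al1a was nearest to Klrb1 (0.995), H2al3 (0.989) and Fam71f1 (0.987), and H2al1g to Scgn (0.986), Klrb1 (0.986) and Kctd16 (0.985). The H2al1 sum was nearest to Rnf133 (0.996), H1fnt (0.995) and Tctex1d1 (0.995).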

How the data were processed

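Values are whole counts of UMIs for every gene and barcode, as deposited. Per the file headers, Cell Ranger 7.0.0 wrote them. The genome build was mm10 and Seurat 4.1.0 was used, per the submitters' processing notes. The genes and lists described were chosen with earlier results of these data known. A cell needed 500 UMIs, 300 genes and a mitochondrial share of 10% or less. Predicted doublets, 352 control (2.21%) and 326 cKO cells (1.77%), were removed at a score threshold of 0.2 set after seeing that the automatic threshold called 0. It caught 22.4% and 15.6% of simulated doublets, so many remain. Counts of both libraries were scaled to 10000 UMIs per cell and clustered with scanpy 1.11.5 (2000 variable genes, 30 components, 20 neighbours, Leiden resolution 1.0), without batch integration. Clusters were called X-like when 3 or more markers stood above the others, a naming rule set after the clusters were seen. Clusters with few UMIs were held apart as low RNA, 2015 control and 2318 cKO cells. UMIs were summed per class and library. CPM, exact Poisson and binomial intervals (scipy 1.17.1) and log2 ratios were computed from the sums. The code was run on simulated sums with counting error alone, so that run says nothing of variation between cells or libraries. Where a share of cells is given at 2000 UMIs, shallower cells were left out. The alternatives tried are in the closing section. Named genes were the 6 variants, the H2al1 sum and the listed relatives. Of the relatives listed, H2bl1, H2ap and Hist3h2bb-ps matched no symbol. No protein sequence was used here.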

Additional observations from a re-analysis of the deposited data

How the results depend on the processing

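Each alternative changed one choice at a time, and none of them gave a 2-fold difference for the 4 ratios of cKO to control (log2) below. For the H2al1 sum in elongating spermatid-like cells (0.06 as reported), the value was −0.031 with doublets kept, −0.52 by median of ratios, −0.20 with totals without the 50 most abundant genes and 0.11 as the mean over single cells. For H2al2a there (−0.03), it was 0.041 by the class of the highest marker score, 0.030 at Leiden resolution 2, 0.027 with doublets kept, −0.61 by median of ratios, −0.29 without the 50 most abundant genes, −0.0094 as the mean over single cells and −0.093 with free RNA subtracted. In mid to late spermatocyte-like cells, Hist1h2ba (0.00) stood at 0.44 by the highest marker score, 0.14 at resolution 2, −0.18 with at most 5% mitochondrial UMIs and 0.15 with doublets kept. Hist1h2aa (−0.14) stood at 0.25, 0.030, −0.42 and −0.016 under the same 4 choices. The means over 6 marker index ranges, chosen after seeing the data, were −0.12 for the H2al1 sum and 0.16 for H2al2a, and all kept cells as 1 pool, chosen likewise, gave −0.31, −0.22, 0.33 (Hist1h2ba) and 0.30 (Hist1h2aa). The cause of these shifts was not tested. H2al1a and H2al1g in round and elongating spermatid-like cells kept ratios under −4 in every alternative run. Equal weights for clusters gave no value for spermatids, since no cluster held 50 cells of each library. No paired analysis was possible because each genotype had 1 library. Classes with few UMIs, such as Hist1h2ba in spermatids, are limited by depth.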
